A study of Mus musculus with 12 samples.

Results

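A set of 47 genes that act in DNA repair was followed in RNA-seq counts of sorted osteoblasts from the metaphysis of mouse long bones. The members were given as a list of gene symbols and were looked up by symbol in the deposited count table, where 47 of 47 were found among 32288 rows. They were grouped by their known repair pathway into homologous recombination (12 genes), break ends and resection (5), RecQ helicases and dissolution (3), end joining (6), the Fanconi pathway (12), base excision and single-strand breaks (6), mismatch repair (2) and lesion bypass (1).

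The series holds 12 libraries of membrane-GFP-positive (mGFP+), CD31/CD45/TER119-negative cells from mice that all carried Osx-CreERT2, a tamoxifen-activated Cre recombinase under the control of the osteoblast gene Osx (Sp7), and the mTmG reporter, and that all received tamoxifen. The juvenile group (3 weeks of age, 4 libraries) and the adult group (8 weeks, 4 libraries) carried no further allele, and each of their libraries pooled 2 male mice. The c-Myc group (2 libraries) also carried LSL-tTA and Col1a1::TetO–c-Myc, so that Cre switched on a c-Myc transgene. The c-Myc + R172H group (2 libraries) carried Trp53-LSL-R172H in addition, a Cre-activated point mutant of p53. In both induced groups cells were taken 7 days after tamoxifen, against 2 days in the other groups. The age of the induced mice was 3 weeks by their sample titles and 5 weeks at dissection by the protocol, their bones were trimmed 5 mm rather than 2 mm from the growth plate, and they received 2 consecutive tamoxifen treatments against 3 days of it in the other groups. The treatment text gives both sexes for the induced mice, whereas the study's methods give male mice for RNA-seq. By the study's methods, mice with the tTA-driven transgene, or pregnant females, drank doxycycline or tetracycline until some time before analysis, against leaky expression. Tamoxifen was dosed by body weight in reporter mice and per mouse for induction. Time after tamoxifen, its schedule and dose, the drug in the water, the trim, age at dissection and sex cannot be told apart from induction in the comparisons with juvenile osteoblasts. No group carried R172H without c-Myc. Nothing in the labels says how many mice the induced libraries came from, so p-values measure the spread between these libraries.

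DNA repair genes fall into a few pathways. Homologous recombination copies an intact sister DNA to mend a double-strand break, and BRCA1, BARD1, PALB2 and BRCA2 act together in it. End joining seals the 2 ends directly, the Fanconi pathway unhooks crosslinks between DNA strands at stalled replication forks, base excision removes single damaged bases, and mismatch repair removes copying errors. Many of the recombination and Fanconi genes are known to be transcribed mainly in cycling cells, whereas the end-joining ligation factors are used through the whole cell cycle.

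The libraries held 9066154 to 15684412 counts. Levels are given as CPM, each gene's count relative to the size of its library, scaled over all 12 libraries with TMM factors (the trimmed mean of M-values, a scaling that is little moved by a few very abundant transcripts). Col1a1, Col1a2 and the noncoding gene Gm26917 took 57.1 to 65.3% of the counts in juvenile, 42.4 to 56.1% in adult, 41.8 to 46.1% in c-Myc and 35.2 to 37.6% in c-Myc + R172H libraries. Gm26917 alone was higher in the induced libraries. It took 7.19 to 8.46% in juvenile, 4.7 to 10.5% in adult, 28.2 and 29.4% in c-Myc and 26.5 and 28.7% in c-Myc + R172H libraries. A gene at 3 counts stood at 0.137 to 0.417 CPM, depending on the library. Myc, the induced gene, was at 39.8 to 52.2 CPM in juvenile and 44.7 to 51.2 CPM in adult libraries, and at 624, 658, 639 and 748 CPM in the c-Myc 1, c-Myc 2, c-Myc + R172H 1 and c-Myc + R172H 2 libraries. The R172H point mutation itself cannot be read from gene counts. The 8 osteoblast markers summed to 571000 to 840000 CPM in juvenile, 343000 to 619000 in adult, 99800 to 132000 in c-Myc and 56400 to 58300 in c-Myc + R172H libraries, and all 8 were detected in every library. The 8 chondrocyte markers summed to 8400 to 24800, 32900 to 120000, 334 to 528 and 155 to 158 CPM in the same order. Of 10 haematopoietic markers Cd3e and S100a8 were at 0 in every library and the list summed to at most 11.5 CPM, the 5 endothelial markers summed to at most 1.24 CPM, and the 4 osteoclast markers summed to 203 to 411 CPM in juvenile and adult and 52.2 to 104 CPM in induced libraries, with Ocstamp at 0 throughout. The 10 proliferation markers (Mki67, Top2a, 6 Mcm genes, Ccna2, Ccnb1) summed to 92.4 to 156 CPM in juvenile, 113 to 218 in adult, 853 to 933 in c-Myc and 907 to 954 in c-Myc + R172H libraries. In these bulk samples, fewer cells of a type and less RNA per cell cannot be told apart.

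The promoters of the members were read from RefSeq (GRCm38.p6), 250 bases before to 50 bases after each transcription start, and 36 of 47 members matched, with 42 windows. They are shown because the induced gene encodes MYC, a transcription factor whose best-known binding letters are the E-box CACGTG, which reads alike on both strands. CACGTG was present in 5 of 42 member windows (11.9%) and in 7.15% of all 32851 windows. The 5 windows, printed 5′ to 3′ on the strand of the gene with CACGTG in capitals (and in the Rmi1 window also the E2F letters TTTGGCGC), belong to Apex1 (chr14:50924699-50924998, + strand), Parp1 (chr1:180568641-180568940, + strand), Xrcc5 (chr1:72307171-72307470, + strand), Lig3 (chr11:82780859-82781158, + strand) and Rmi1 (chr13:58402347-58402646, + strand).
Apex1: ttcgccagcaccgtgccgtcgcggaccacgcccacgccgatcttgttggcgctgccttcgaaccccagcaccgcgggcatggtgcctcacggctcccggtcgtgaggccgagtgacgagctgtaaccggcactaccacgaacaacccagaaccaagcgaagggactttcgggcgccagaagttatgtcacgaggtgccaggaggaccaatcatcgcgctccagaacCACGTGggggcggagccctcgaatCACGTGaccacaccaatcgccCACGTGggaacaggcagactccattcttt
Parp1: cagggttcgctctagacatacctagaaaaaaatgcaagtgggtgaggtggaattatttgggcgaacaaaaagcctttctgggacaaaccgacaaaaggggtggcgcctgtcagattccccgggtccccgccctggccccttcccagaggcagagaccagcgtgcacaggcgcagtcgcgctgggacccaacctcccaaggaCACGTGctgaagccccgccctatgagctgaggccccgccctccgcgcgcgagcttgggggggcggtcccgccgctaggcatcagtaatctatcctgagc
Xrcc5: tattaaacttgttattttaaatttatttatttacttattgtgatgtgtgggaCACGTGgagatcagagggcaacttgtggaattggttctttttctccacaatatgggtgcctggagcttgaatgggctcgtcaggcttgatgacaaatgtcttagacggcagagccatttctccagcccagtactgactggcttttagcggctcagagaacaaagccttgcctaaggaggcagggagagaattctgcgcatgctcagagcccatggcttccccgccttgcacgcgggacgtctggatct
Lig3: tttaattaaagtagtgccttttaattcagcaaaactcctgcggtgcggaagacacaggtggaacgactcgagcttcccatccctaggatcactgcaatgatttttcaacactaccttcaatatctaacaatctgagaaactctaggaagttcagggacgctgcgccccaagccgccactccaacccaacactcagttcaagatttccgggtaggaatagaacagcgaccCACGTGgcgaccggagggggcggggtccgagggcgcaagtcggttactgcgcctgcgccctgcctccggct
Rmi1: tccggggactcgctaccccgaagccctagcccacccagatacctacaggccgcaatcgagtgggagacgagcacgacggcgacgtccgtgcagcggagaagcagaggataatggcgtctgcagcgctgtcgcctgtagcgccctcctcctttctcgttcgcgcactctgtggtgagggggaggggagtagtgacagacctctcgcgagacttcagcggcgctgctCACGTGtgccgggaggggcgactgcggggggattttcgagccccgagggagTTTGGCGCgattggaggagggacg

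Apex1, whose window holds 3 copies of CACGTG, and Parp1 and Xrcc5, with 1 copy each, rose in both induced groups, whereas Lig3 and Rmi1, also with 1 copy each, did not pass the test in either, as given below with their levels. Other letters were searched on both strands of the same windows. The E2F letters TTTCGCGC or TTTGGCGC were found in 2 member windows (4.76%, against 0.813% of all windows), those of Rad51c and Rmi1, and neither gene passed the test. The letters TTTGAA, the cell-cycle homology region, were found in 3 member windows (7.14%, against 17.9%), and CCAAT in 26 (61.9%, against 37.4%). Among the 23 members with CCAAT in a window 17 were called higher in c-Myc osteoblasts, and among the 13 without it 8 were. For the E-box these counts were 3 of 5 with it and 22 of 31 without it, and for the GC box GGGCGG, present in 64.3% of member windows and 35.7% of all windows, 17 of 25 and 8 of 11. A match of letters is a description of the window, and binding was not measured here.

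The question of the first comparison was how c-Myc induction changed juvenile osteoblasts. DNA repair members were higher in the c-Myc libraries over nearly every pathway. Among members that passed the filter on low counts in the juvenile libraries alone, the largest changes were those of Fanca, a Fanconi gene (9.66-fold), the recombination gene Brca1 (6.8-fold) and the base excision gene Apex1 (5.8-fold). Rad54l, Exo1, Fanci, Polq and Xrcc3 had larger fitted values, but they held 0 to 15 counts in each juvenile library. They did not pass the filter on the juvenile libraries alone, so their values are a description. In edgeR's quasi-likelihood F test, with Benjamini-Hochberg adjustment over all 12588 genes tested, 34 of 47 members were called higher at an adjusted p under 0.05, where 28.4% of all genes tested were called higher. Only 1 member, Fancc, was called lower, where 25.0% of all genes were, and 12 members passed in neither direction. On the log2 scale the members' changes had a median of 1.40, against 0.04 over all genes tested. With a fold change of at least 2 added to the call, 30 members were called higher, against 18.4% of all genes, and in 39 members both c-Myc libraries lay above all 4 juvenile libraries, against 35.7% of all genes. Members that did not pass the filter on the juvenile libraries alone made up 15 of these 30 and 18 of these 39. That part of the counts is a description. The summed level of the members was 301.4 to 375.3 CPM in juvenile and 848.6 to 887.2 CPM in c-Myc libraries.

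The second comparison set c-Myc + R172H against the same 4 juvenile libraries, which the first comparison used too. Here 35 of 47 members were called higher (30.4% of all genes tested), 0 were called lower (26.3% of all genes; 0 members were lower at an unadjusted p under 0.05 in edgeR and 0 lower in DESeq2), and 12 passed in neither direction. On the log2 scale the median change was 1.59, against 0.08 over all genes. Of the called members, 31 were also at least 2-fold higher (19.6% of all genes), and 39 members did not overlap with the juvenile libraries on the higher side (36.6% of all genes). Members that did not pass the filter on the juvenile libraries alone made up 16 of these 31 and 18 of these 39, again as a description. The 10 proliferation markers were all called higher in both comparisons, with a median change, on the log2 scale, of 3.05 in c-Myc and 2.98 in c-Myc + R172H osteoblasts, and all 8 osteoblast and all 8 chondrocyte markers were called lower in both. The part of these changes in the members' changes was not tested.

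**Figure D1:**
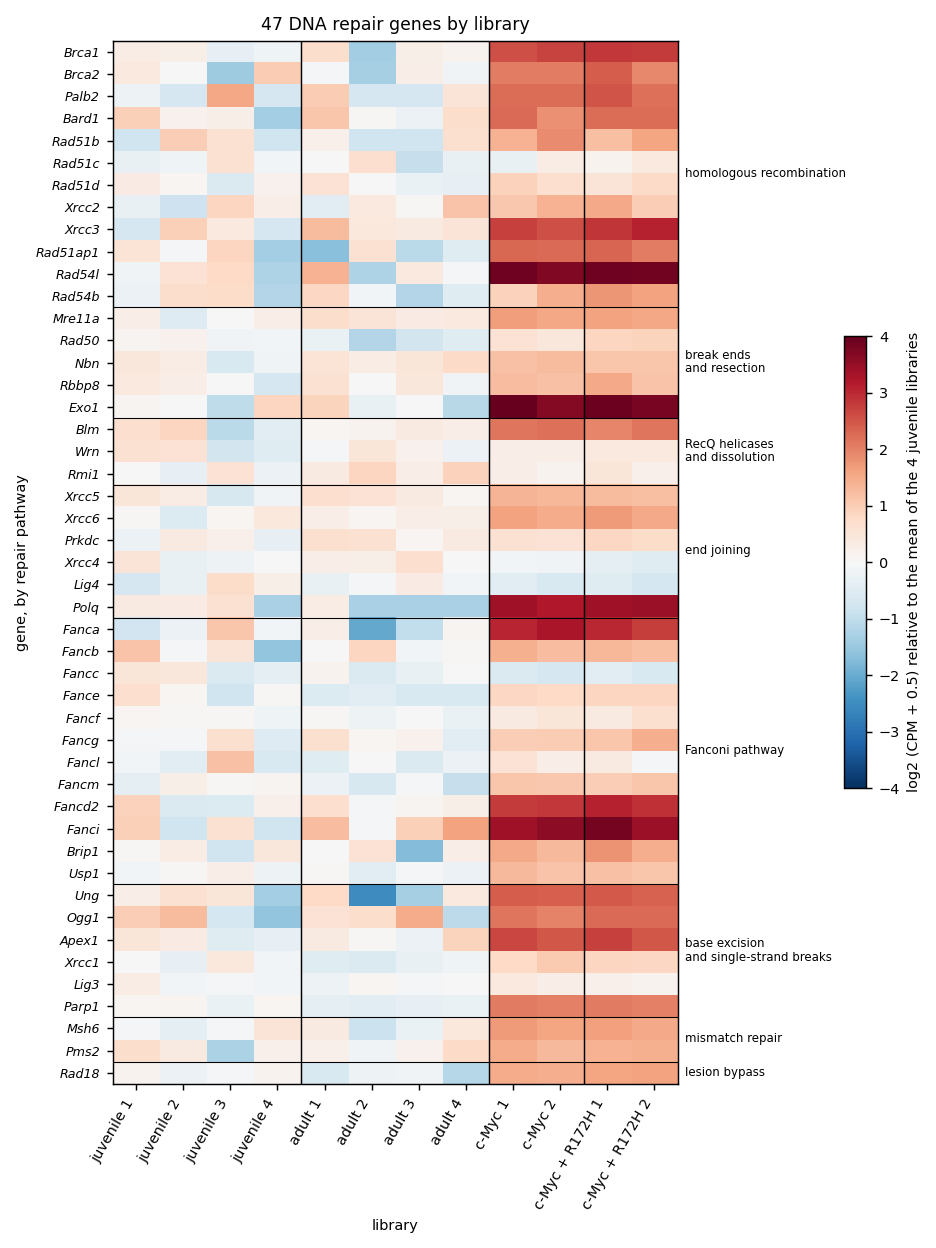
Each cell is the log2 (CPM + 0.5) of one of the 47 members (rows, by pathway) in one of the 12 libraries (columns), relative to the mean of the 4 juvenile libraries, from blue (lower) to red (higher). The 4 induced libraries are red for most rows, deepest for Rad54l, Exo1, Polq and Fanci, whereas Fancc, Lig4 and Xrcc4 stay pale or blue and the adult libraries show no shared colour.

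Several members were close to absent in juvenile libraries. On the juvenile libraries alone, where every library had to reach the level of the filter, 27 of 47 members passed. Of these 27, 19 were called higher and 1 lower in c-Myc osteoblasts, with a median change, on the log2 scale, of 1.17. Over all genes tested 28.4% were called higher and 25.0% lower there. In each of the other 20 at least 1 juvenile library fell short. In the induced fit fewer libraries had to reach that level, and induced ones could do so. The counts of these 20, 15 called higher in c-Myc and 16 in c-Myc + R172H osteoblasts, are therefore given as a description. In c-Myc + R172H osteoblasts 19 of the 27 were called higher, beside 30.4% of all genes, with a median of 1.10. The members Palb2, Rad51b, Xrcc3, Rad54l, Rad54b, Polq, Fancb, Fanci and Ogg1 had at least 1 juvenile library at 0 counts, and their fitted fold changes depend on the small count that the fit adds.

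In homologous recombination 9 of 12 members were called higher in each induced group, beside 28.4% of all genes in c-Myc and 30.4% in c-Myc + R172H osteoblasts. Of these 9, 7 in c-Myc and 8 in c-Myc + R172H osteoblasts did not pass the filter on the juvenile libraries alone, so the count is a description. Brca1 and, in c-Myc osteoblasts, Rad51d are the called members that passed on the juvenile libraries alone. Rad54l, a motor protein of recombination that acts on joined DNA (chromosome 4, 116094264 to 116123690, - strand, GRCm38), stood at 0.548, 1.24, 1.53 and 0 CPM in the juvenile and 2.53, 0, 1.04 and 0.64 CPM in the adult libraries. Rad54l levels were 16.6 and 14.7 CPM in the c-Myc and 17 and 16.5 CPM in the c-Myc + R172H libraries. Every induced library lay above every juvenile and adult library. Its log2 fold change was 4.23 (adjusted p = 8.88e-06, SE 0.47) in c-Myc and 4.36 (adjusted p = 5.92e-06, SE 0.47) in c-Myc + R172H osteoblasts. Xrcc3, a recombination gene, stood at 0, 1.03, 0.556 and 0 CPM in the juvenile and 1.42, 0.564, 0.518 and 0.64 CPM in the adult libraries. Xrcc3 levels were 4.75 and 4.25 CPM in the c-Myc and 5.31 and 6.2 CPM in the c-Myc + R172H libraries, again with no overlap between induced and other libraries, and its log2 fold change was 3.47 (adjusted p = 0.00192, SE 0.76) and 3.85 (adjusted p = 0.000786, SE 0.75) in the same order. Brca1, the scaffold and ubiquitin ligase that starts recombination (chromosome 11, 101488764 to 101551955, - strand), was measured from more counts, 14 to 36 in juvenile and 343 to 472 in induced libraries. Its levels were 3.29, 3.1, 1.95 and 2.24 CPM in the juvenile and 4.56, 0.677, 3.11 and 2.88 CPM in the adult libraries. Brca1 levels were 17.9 and 19.5 CPM in the c-Myc and 21.6 and 20.8 CPM in the c-Myc + R172H libraries. The log2 fold change of Brca1 was 2.77 (adjusted p = 7.82e-07, SE 0.23) in c-Myc and 2.98 (adjusted p = 3.12e-07, SE 0.23) in c-Myc + R172H osteoblasts, and adult 2, at 0.677 CPM, was the lowest library. Palb2, which links BRCA1 to BRCA2, was at 0.183, 0, 1.81 and 0 CPM in the juvenile and 1.11, 0, 0 and 0.64 CPM in the adult libraries. Palb2 levels were 3.24 and 3.23 CPM in the c-Myc and 4.03 and 3.13 CPM in the c-Myc + R172H libraries. Its juvenile 3 library held 13 counts where the other juvenile libraries held 0 to 2. The log2 fold change of Palb2 was 2.81 (adjusted p = 0.0238, SE 0.94) and 2.98 (adjusted p = 0.0165, SE 0.94) in edgeR. Its c-Myc call was lost when juvenile 1, juvenile 2, c-Myc 1 or c-Myc 2 was left out (lowest value 2.37). That call was also lost in a fit of all 12 libraries and in a fit of the 2 groups alone. The c-Myc + R172H call was lost when either library of that group was left out (2.74 and 3.10).

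Further recombination members, Brca2, Bard1, Rad51ap1 and Xrcc2, were called higher. None of them passed the filter on the juvenile libraries alone, so their values are a description. Brca2, a central recombination gene, had a log2 fold change of 1.92 (adjusted p = 0.00259, SE 0.44) in c-Myc and 2.10 (adjusted p = 0.00122, SE 0.43) in c-Myc + R172H osteoblasts, from 0.695 to 5.96 CPM in juvenile to 11.8 to 16.8 CPM in induced libraries. Bard1, the obligate partner of BRCA1, rose by 1.99 and 2.19, and Rad51ap1, an accessory factor of recombination, by 2.40 and 2.33 on the log2 scale. Xrcc2, the partner of RAD51D, rose by 1.29 and 1.36, from 0.929 to 4.03 CPM to 4.52 to 6.68 CPM, with adjusted p of 0.0344 and 0.0249 in the quasi-likelihood test. Both calls of Xrcc2 were lost on leaving out either library of the induced group in question or juvenile 1. The c-Myc call of Xrcc2 was also lost without juvenile 2 or either c-Myc + R172H library, and the c-Myc + R172H call without c-Myc 2. A fit of the 2 groups alone lost both calls, and a fit of all 12 libraries lost the c-Myc call.

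Other recombination members did not pass in both comparisons. Rad51c, which forms complexes with XRCC3 and with RAD51B, was at 1.46, 1.65, 3.2 and 1.74 CPM in the juvenile and 1.92, 3.39, 0.776 and 1.49 CPM in the adult libraries. Rad51c levels were 1.46 and 2.5 CPM in the c-Myc and 2.2 and 2.68 CPM in the c-Myc + R172H libraries, and the groups overlapped. Its log2 fold change was -0.03 (adjusted p = 0.963, SE 0.52) in c-Myc and 0.30 (adjusted p = 0.638, SE 0.51) in c-Myc + R172H osteoblasts, with a 95% interval from -1.16 to 1.10 in c-Myc osteoblasts. Rad51d, the partner of XRCC2, was at 5.21, 4.23, 2.5 and 4.6 CPM in the juvenile and 6.28, 4.06, 3.23 and 3.09 CPM in the adult libraries. Rad51d levels were 8.13 and 6.69 CPM in the c-Myc and 6 and 7.15 CPM in the c-Myc + R172H libraries. It was called higher in c-Myc (0.80, adjusted p = 0.0483, SE 0.32) and not in c-Myc + R172H osteoblasts (0.66, adjusted p = 0.0954, SE 0.32), while the difference between the 2 induced groups was -0.14 (adjusted p = 1, SE 0.36), and its c-Myc call was lost without juvenile 2, juvenile 3 or any 1 of the 4 induced libraries. The Rad51d call was also lost under upper-quartile scaling, in a fit of all 12 libraries and in a fit of the 2 groups alone. Rad51b was at 0, 1.24, 0.834 and 0 CPM in the juvenile and 0.506, 0, 0 and 0.853 CPM in the adult libraries. Rad51b levels were 1.78 and 2.72 CPM in the c-Myc and 1.51 and 2.08 CPM in the c-Myc + R172H libraries, above every juvenile library in each induced library but with counts of only 33 to 48 there, and its log2 fold changes of 2.10 (adjusted p = 0.084, SE 0.96) and 1.81 (adjusted p = 0.131, SE 0.97) did not pass. Both passed with no filter (2.15 and 1.86), without juvenile 2 (3.14 and 2.85) and by library totals (2.91 and 2.84). By library totals the median of all genes moved to 0.87 and 1.12. Rad54b, a relative of RAD54L, was at 0.457, 1.34, 1.39 and 0 CPM in the juvenile and 1.52, 0.564, 0 and 0.32 CPM in the adult libraries. Rad54b levels were 1.64 and 2.61 CPM in the c-Myc and 3.34 and 2.93 CPM in the c-Myc + R172H libraries. Its log2 fold change did not pass in c-Myc (1.40, adjusted p = 0.147, SE 0.77) and passed in c-Myc + R172H osteoblasts (1.99, adjusted p = 0.04, SE 0.76), where the call was lost on leaving out juvenile 1 or any 1 of the induced libraries. The Rad54b call was also lost in a fit of all 12 libraries and in a fit of the 2 groups alone. Of the exons of Rad54b 35.8% lie over Fsbp on the same strand, and Fsbp itself was at 0 to 0.548 CPM.

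**Figure D2:**
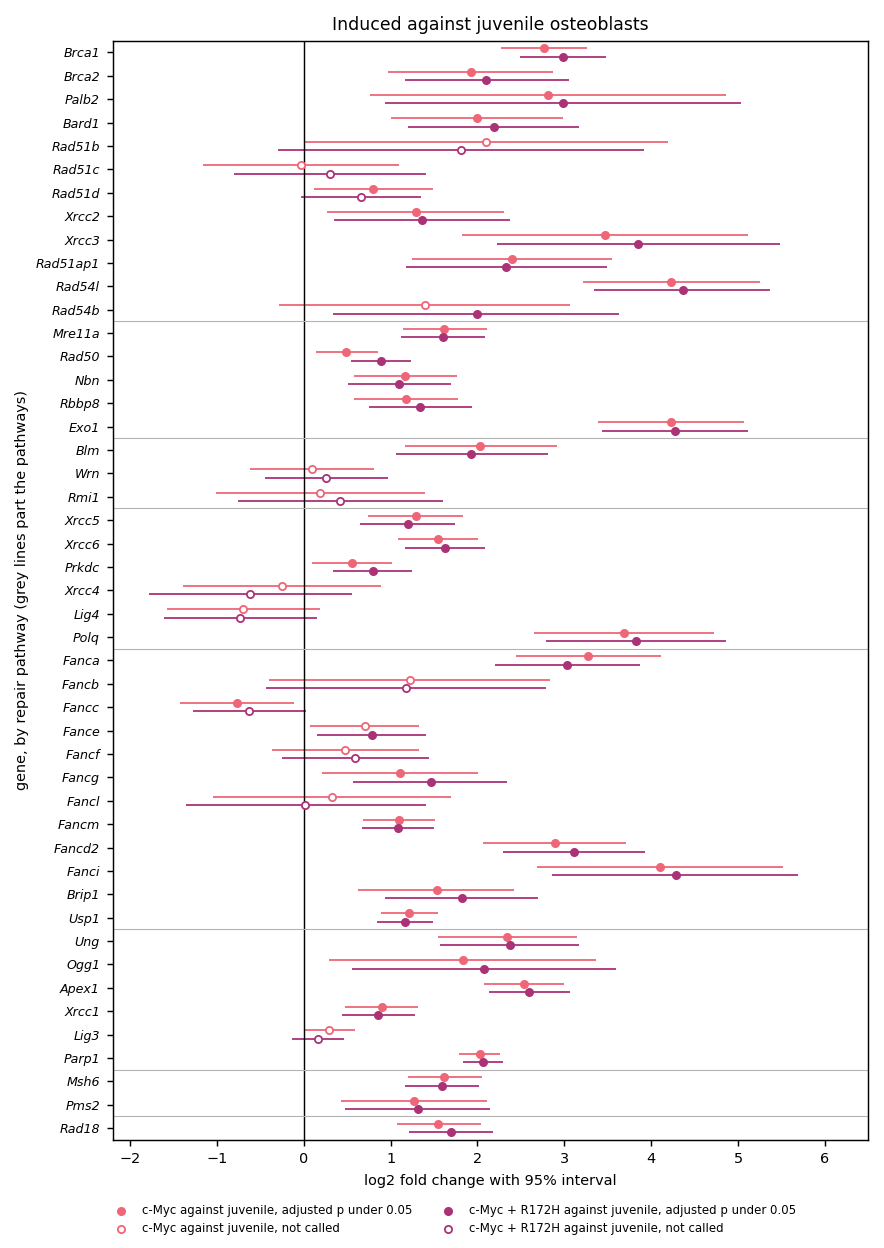
Points are the log2 fold changes of the 47 members in c-Myc (pink) and c-Myc + R172H (purple) against juvenile osteoblasts, with 95% intervals as lines. Filled points passed at an adjusted p under 0.05 and open points did not, and the intervals of most recombination, resection and base excision members lie wholly above 0 while those of Rad51c, Wrn, Rmi1, Xrcc4, Lig4, Fancb, Fancf, Fancl and Lig3 include 0 in both.

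All 5 genes that recognise and trim break ends were called higher in both induced groups. Over all genes tested 28.4% were called higher in c-Myc and 30.4% in c-Myc + R172H osteoblasts. Exo1 did not pass the filter on the juvenile libraries alone. Exo1, the exonuclease that extends resection of a break and also acts in mismatch repair, was at 0.913, 0.826, 0.139 and 1.86 CPM in the juvenile and 1.92, 0.564, 0.776 and 0.107 CPM in the adult libraries. Exo1 levels were 20.3 and 16 CPM in the c-Myc and 19.3 and 17.4 CPM in the c-Myc + R172H libraries. Juvenile and adult libraries were all under 2 CPM and induced libraries all at or over 16 CPM. The log2 fold change of Exo1 was 4.23 (adjusted p = 1.85e-06, SE 0.39) in c-Myc and 4.27 (adjusted p = 1.4e-06, SE 0.39) in c-Myc + R172H osteoblasts. The MRN complex, which binds break ends first, consists of Mre11a, Rad50 and Nbn. Mre11a, its nuclease, was at 8.31, 4.54, 6.68 and 8.32 CPM in the juvenile and 11.2, 9.82, 8.67 and 8.96 CPM in the adult libraries. Mre11a levels were 22.8 and 20.8 CPM in the c-Myc and 21.6 and 20.6 CPM in the c-Myc + R172H libraries, with a log2 fold change of 1.62 (adjusted p = 5.84e-05, SE 0.22) and 1.60 (adjusted p = 5.82e-05, SE 0.22). Rad50, its ATPase, was at 15.1, 15.7, 12.5 and 12.9 CPM in the juvenile and 11.6, 5.87, 8.15 and 9.81 CPM in the adult libraries. Rad50 levels were 21.2 and 19.2 CPM in the c-Myc and 25.6 and 26.4 CPM in the c-Myc + R172H libraries. It rose least of the pathway, by 0.49 in c-Myc (adjusted p = 0.023 in the quasi-likelihood test, lost when any 1 of the 4 induced libraries was left out) and by 0.89 in c-Myc + R172H osteoblasts (adjusted p = 0.000487). The c-Myc call of Rad50 was also lost in a fit of all 12 libraries and in a fit of the 2 groups alone. Nbn rose by 1.17 and 1.10 on the log2 scale, with 3.89 to 8.77 CPM in juvenile and 14.1 to 15.7 CPM in induced libraries. Rbbp8 (CtIP), which starts resection with MRN, was at 7.49, 6.91, 5.7 and 3.35 CPM in the juvenile and 8.81, 5.53, 7.89 and 5.01 CPM in the adult libraries. Rbbp8 levels were 13.9 and 13.4 CPM in the c-Myc and 16.9 and 13.1 CPM in the c-Myc + R172H libraries and rose by 1.18 and 1.34 on the log2 scale.

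Among the RecQ helicases and their partner, Blm moved and Wrn and Rmi1 did not pass. Blm, the helicase lost in Bloom syndrome that dissolves joined DNA molecules, was at 5.48, 6.29, 1.25 and 2.24 CPM in the juvenile and 3.44, 3.61, 4.27 and 3.94 CPM in the adult libraries. Blm levels were 16.1 and 16.8 CPM in the c-Myc and 14.1 and 16 CPM in the c-Myc + R172H libraries. Its log2 fold change was 2.03 (adjusted p = 0.000984, SE 0.40) in c-Myc and 1.93 (adjusted p = 0.00132, SE 0.40) in c-Myc + R172H osteoblasts. Wrn, the helicase lost in Werner syndrome, was at 22.6, 22.1, 8.62 and 10.3 CPM in the juvenile and 13.7, 20.8, 16.3 and 12.4 CPM in the adult libraries. Wrn levels were 17.4 and 17.6 CPM in the c-Myc and 19.3 and 19.1 CPM in the c-Myc + R172H libraries. The juvenile libraries of Wrn split, with juvenile 1 and 2 at over 20 CPM and juvenile 3 and 4 near 10 CPM, and the induced libraries lay between them (0.10, adjusted p = 0.824, SE 0.33, and 0.26, adjusted p = 0.527, SE 0.33). Rmi1, which works with BLM, was at 1.37, 1.03, 2.36 and 1.12 CPM in the juvenile and 1.92, 2.94, 1.81 and 3.09 CPM in the adult libraries. Rmi1 levels were 1.78 and 1.59 CPM in the c-Myc and 2.2 and 1.69 CPM in the c-Myc + R172H libraries, and its log2 fold changes of 0.19 (adjusted p = 0.793, SE 0.55) and 0.42 (adjusted p = 0.534, SE 0.54) did not pass.

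Of the 6 end-joining members, the break-binding Ku genes, the kinase gene Prkdc and Polq were called higher in both induced groups. Over all genes tested 28.4% were called higher in c-Myc and 30.4% in c-Myc + R172H osteoblasts. Polq did not pass the filter on the juvenile libraries alone. Xrcc4 and Lig4, which form the complex that ligates the ends, did not pass. A difference between these genes was not tested, and the interval of Xrcc4 in c-Myc osteoblasts (-1.39 to 0.89) includes the value of Prkdc (0.56). Xrcc6 (Ku70) was at 10.5, 6.71, 10.7 and 13.7 CPM in the juvenile and 12.4, 10.6, 12.3 and 12 CPM in the adult libraries. Xrcc6 levels were 32.2 and 29.4 CPM in the c-Myc and 33.9 and 29.8 CPM in the c-Myc + R172H libraries, with a log2 fold change of 1.55 (adjusted p = 5.31e-05, SE 0.21) in c-Myc and 1.63 (adjusted p = 3.04e-05, SE 0.21) in c-Myc + R172H osteoblasts. Xrcc5 (Ku80), one of the genes whose promoter is printed above, was at 12.2, 10.7, 5.42 and 7.83 CPM in the juvenile and 14.2, 13.1, 11.3 and 9.17 CPM in the adult libraries. Xrcc5 levels were 22.9 and 22.7 CPM in the c-Myc and 21.6 and 20.4 CPM in the c-Myc + R172H libraries, with log2 fold changes of 1.29 (adjusted p = 0.000865, SE 0.25) and 1.20 (adjusted p = 0.00136, SE 0.25). Prkdc, the DNA-dependent protein kinase, rose by 0.56 (adjusted p = 0.0398) and 0.80 (adjusted p = 0.00582) in edgeR's test. Its c-Myc call was lost under upper-quartile scaling, with only the 2 groups fitted, and when any 1 of the 4 induced libraries, juvenile 1 or juvenile 4 was left out, and its c-Myc + R172H call when c-Myc + R172H 1 was left out (0.73, adjusted p = 0.0684). Polq, the polymerase of microhomology-mediated end joining, was at 1.1, 1.03, 1.39 and 0 CPM in the juvenile and 1.01, 0, 0 and 0 CPM in the adult libraries. Polq levels were 12.5 and 10.9 CPM in the c-Myc and 12.3 and 12.9 CPM in the c-Myc + R172H libraries. Its adult 2, 3 and 4 and juvenile 4 libraries held 0 counts. The log2 fold change of Polq was 3.69 (adjusted p = 3.37e-05, SE 0.48) and 3.82 (adjusted p = 2.11e-05, SE 0.47). Xrcc4 was at 3.11, 1.55, 1.67 and 1.99 CPM in the juvenile and 2.53, 2.48, 3.49 and 2.03 CPM in the adult libraries. Xrcc4 levels were 1.83 and 1.76 CPM in the c-Myc and 1.42 and 1.29 CPM in the c-Myc + R172H libraries, with log2 fold changes of -0.25 (adjusted p = 0.715, SE 0.52) and -0.62 (adjusted p = 0.346, SE 0.53). Both c-Myc + R172H libraries of Xrcc4 lay below every juvenile library. Lig4, the ligase, was at 3.56, 4.75, 10.2 and 7.08 CPM in the juvenile and 4.76, 5.64, 7.5 and 5.44 CPM in the adult libraries. Lig4 levels were 4.2 and 3.69 CPM in the c-Myc and 4.07 and 3.47 CPM in the c-Myc + R172H libraries, with log2 fold changes of -0.70 (adjusted p = 0.168, SE 0.41) and -0.73 (adjusted p = 0.144, SE 0.41). Lig4 levels overlapped between the groups, and its intervals reached from -1.58 and -1.61 to 0.19 and 0.15.

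In the Fanconi pathway 7 of 12 members were called higher in c-Myc and 8 of 12 in c-Myc + R172H osteoblasts, beside 28.4% and 30.4% of all genes. In both groups 4 of these, Fancg, Fancd2, Fanci and Brip1, did not pass the filter on the juvenile libraries alone. Fancd2 and Fanci encode the pair that is monoubiquitinated and clamps onto DNA at a crosslink. Fanci was at 1.19, 0, 0.834 and 0 CPM in the juvenile and 1.52, 0.339, 1.16 and 2.13 CPM in the adult libraries. Fanci levels were 8.54 and 9.92 CPM in the c-Myc and 11.7 and 8.84 CPM in the c-Myc + R172H libraries, with a log2 fold change of 4.10 (adjusted p = 0.000189, SE 0.65) and 4.28 (adjusted p = 0.000115, SE 0.65). Fancd2 was at 3.56, 0.929, 0.974 and 1.99 CPM in the juvenile and 2.94, 1.58, 1.81 and 2.03 CPM in the adult libraries. Fancd2 levels were 14.3 and 14.8 CPM in the c-Myc and 17.5 and 15.8 CPM in the c-Myc + R172H libraries, with log2 fold changes of 2.89 (adjusted p = 3.84e-05, SE 0.38) and 3.11 (adjusted p = 1.72e-05, SE 0.38). In both genes every induced library lay above every juvenile and adult library. Usp1, which removes the ubiquitin again, was the most abundant Fanconi member per length of transcript. It rose by 1.21 in c-Myc and 1.17 in c-Myc + R172H osteoblasts on the log2 scale. Its levels were 13.9 to 19.7 CPM in juvenile and 35.9 to 40.9 CPM in induced libraries.

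The core complex, which places that ubiquitin, was called higher only in Fanca, Fancg and Fancm in c-Myc osteoblasts, and in Fance too in c-Myc + R172H osteoblasts. Fanca was at 1, 1.65, 5.01 and 1.86 CPM in the juvenile and 2.53, 0.113, 0.776 and 2.24 CPM in the adult libraries. Fanca levels were 20.6 and 23.8 CPM in the c-Myc and 20.1 and 16.8 CPM in the c-Myc + R172H libraries, with log2 fold changes of 3.27 (adjusted p = 1.5e-05, SE 0.38) and 3.03 (adjusted p = 2.58e-05, SE 0.39). Fancg, which binds FANCA, rose by 1.11 and 1.46, with its c-Myc call lost without juvenile 1, juvenile 2 or any 1 of the 4 induced libraries, its c-Myc + R172H call lost without c-Myc + R172H 2, and its c-Myc call also lost under upper-quartile scaling, in a fit of all 12 libraries and in a fit of the 2 groups alone. Fancm, the anchor of the complex on DNA, rose by 1.10 and 1.09 on the log2 scale. Fancl, the ubiquitin ligase itself, was at 1.46, 1.03, 4.17 and 0.87 CPM in the juvenile and 1.01, 1.58, 0.906 and 1.28 CPM in the adult libraries. Fancl levels were 2.65 and 2.04 CPM in the c-Myc and 2.2 and 1.54 CPM in the c-Myc + R172H libraries, and did not pass (0.32, adjusted p = 0.689, SE 0.63, and 0.02, adjusted p = 0.977, SE 0.64). Fancb, its binding partner, was at 2.83, 0.929, 1.67 and 0 CPM in the juvenile and 1.01, 2.26, 0.906 and 1.07 CPM in the adult libraries. Fancb levels were 3.52 and 3.06 CPM in the c-Myc and 3.3 and 2.98 CPM in the c-Myc + R172H libraries, and did not pass (1.22, adjusted p = 0.188, SE 0.74, and 1.18, adjusted p = 0.196, SE 0.74). Both values of Fancb passed with no filter (1.27 and 1.23) and by library totals (2.00 and 2.17). Fancf was at 2.28, 2.27, 2.23 and 1.86 CPM in the juvenile and 2.23, 1.81, 2.2 and 1.71 CPM in the adult libraries. Fancf levels were 2.92 and 3.23 CPM in the c-Myc and 2.88 and 3.62 CPM in the c-Myc + R172H libraries, with log2 fold changes of 0.48 (adjusted p = 0.32, SE 0.39) and 0.59 (adjusted p = 0.212, SE 0.39), and every induced library lay above every juvenile one. Fance was at 18.9, 12.2, 6.4 and 12 CPM in the juvenile and 7.8, 8.24, 7.5 and 7.46 CPM in the adult libraries. Fance levels were 21.1 and 20.4 CPM in the c-Myc and 21.3 and 21.6 CPM in the c-Myc + R172H libraries, with log2 fold changes of 0.70 (adjusted p = 0.0589, SE 0.29), which did not pass, and 0.78 (adjusted p = 0.0357, SE 0.29), which did. The Fance call in c-Myc + R172H osteoblasts was lost with the 2 groups fitted alone and when juvenile 2, juvenile 4 or any 1 of the induced libraries was left out. Its c-Myc value passed (0.99, adjusted p = 0.00667 in edgeR) without juvenile 1. It also passed in a fit of all 12 libraries (0.73), with no filter (0.76), with at least 10 counts in every library (0.71) and by library totals (1.51).

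Fancc was the only member called lower, while Lig4 and Xrcc4 had negative values in both comparisons and did not pass. The levels of Fancc were 20.6, 20.2, 9.74 and 11.4 CPM in the juvenile and 16.1, 9.6, 11.8 and 14.9 CPM in the adult libraries. Fancc levels were 9.59 and 9.02 CPM in the c-Myc and 10.8 and 9.38 CPM in the c-Myc + R172H libraries. Both c-Myc libraries lay below all 4 juvenile libraries, and the c-Myc + R172H libraries overlapped with them. The log2 fold change was -0.77 (adjusted p = 0.0484, SE 0.30) in c-Myc, close to the threshold, and -0.63 (adjusted p = 0.0933, SE 0.30) in c-Myc + R172H osteoblasts, which did not pass. As with Wrn, juvenile 1 and 2 were near 20 CPM and juvenile 3 and 4 near 10 CPM. The c-Myc call was lost when juvenile 1, juvenile 2 or any 1 of the 4 induced libraries was left out, and in CPM by library totals without a scaling factor its direction turned (0.03), where the median of all genes moved to 0.87. In c-Myc + R172H osteoblasts Fancc was called lower when juvenile 3 (-0.80) or juvenile 4 (-0.76) was left out. Brip1, the helicase partner of BRCA1 that also counts as a Fanconi gene, rose by 1.53 and 1.82, from 0.695 to 2.36 CPM to 4.59 to 6.77 CPM, and its c-Myc call was lost without c-Myc 1.

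**Figure D3:**
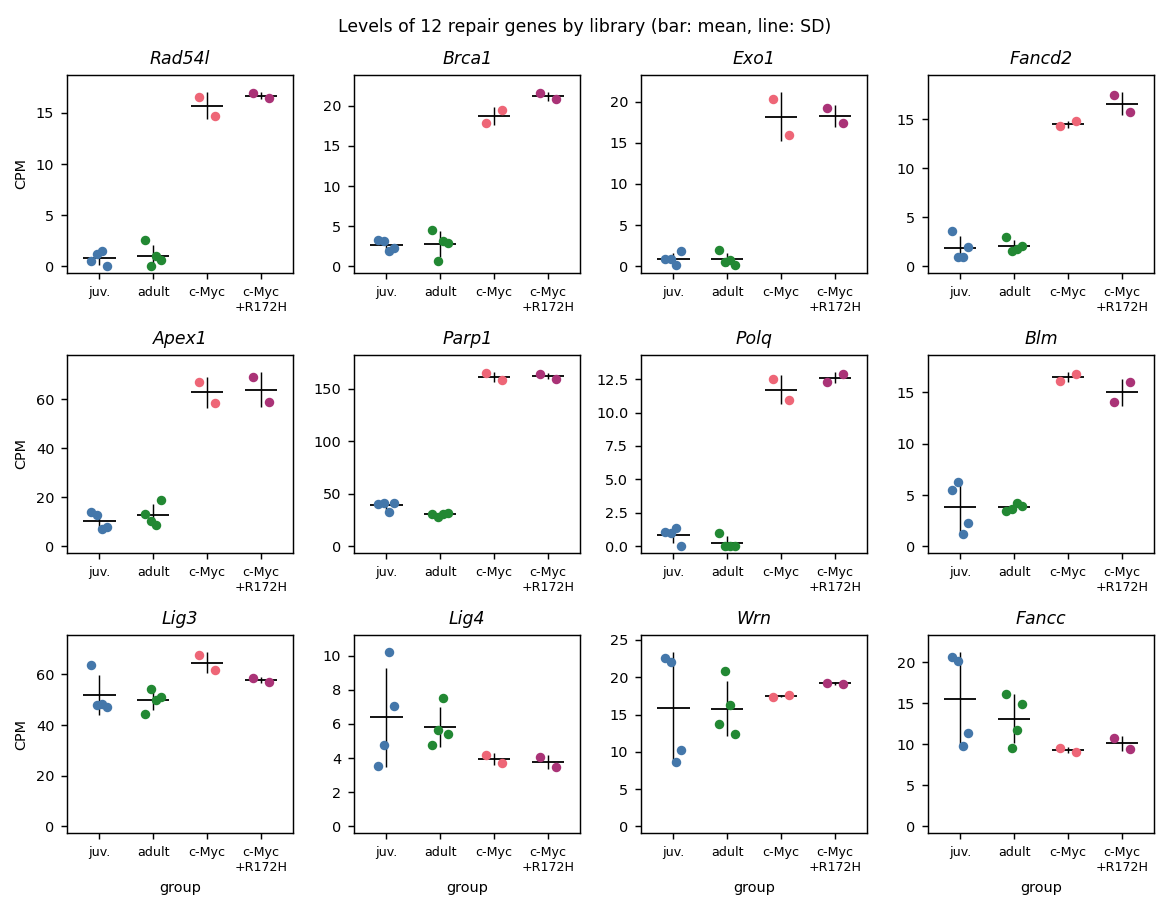
CPM (axis from 0) of 12 members in each library, grouped by juvenile, adult, c-Myc and c-Myc + R172H, with each point a library, a horizontal bar for the group mean and a vertical line for the SD. In Rad54l, Brca1, Exo1, Fancd2, Apex1, Parp1, Polq and Blm all 4 induced libraries lie above all 8 others, whereas in Lig3, Lig4, Wrn and Fancc the induced libraries lie within or near the range of the others.

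Base excision and single-strand break repair held the most abundant members per length of exon, and 5 of its 6 members were called higher in both induced groups. Over all genes tested 28.4% were called higher in c-Myc and 30.4% in c-Myc + R172H osteoblasts. Ung and Ogg1 did not pass the filter on the juvenile libraries alone. Apex1, the endonuclease that cuts the DNA backbone at a site that lost its base, was at 14.2, 12.6, 7.09 and 7.95 CPM in the juvenile and 13.1, 10.4, 8.54 and 19 CPM in the adult libraries. Apex1 levels were 67.2 and 58.4 CPM in the c-Myc and 69 and 59 CPM in the c-Myc + R172H libraries. Its log2 fold change was 2.54 (adjusted p = 9.21e-07, SE 0.21) in c-Myc and 2.59 (adjusted p = 6.18e-07, SE 0.21) in c-Myc + R172H osteoblasts. Of the exons of Apex1 61.7% lie over Pip4p1 on the opposite strand, and Pip4p1 was at 6.95 to 10 CPM in juvenile and 7.64 to 9.47 CPM in induced libraries, and its own log2 value was 0.02 in c-Myc osteoblasts (adjusted p = 0.955 in edgeR). Parp1, the sensor that marks broken strands with poly(ADP-ribose), was at 40.7, 41.4, 32.4 and 41 CPM in the juvenile and 30.4, 28, 31.1 and 31.9 CPM in the adult libraries. Parp1 levels were 165 and 158 CPM in the c-Myc and 164 and 159 CPM in the c-Myc + R172H libraries. It had the smallest adjusted p of the members in both comparisons, with log2 fold changes of 2.03 (adjusted p = 2.86e-08, SE 0.11) and 2.06 (adjusted p = 1.5e-08, SE 0.11). Ung, which removes uracil from DNA, was at 3.74, 4.95, 4.45 and 0.87 CPM in the juvenile and 5.67, 0.113, 0.906 and 4.16 CPM in the adult libraries. Ung levels were 18.5 and 18 CPM in the c-Myc and 18.7 and 17.7 CPM in the c-Myc + R172H libraries, with log2 fold changes of 2.34 (adjusted p = 0.000161, SE 0.37) and 2.37 (adjusted p = 0.00013, SE 0.37). Ogg1, which removes oxidised guanine, was at 2.47, 3.1, 0.417 and 0 CPM in the juvenile and 1.72, 1.92, 3.62 and 0.213 CPM in the adult libraries. Ogg1 levels were 6.03 and 5.39 CPM in the c-Myc and 6.64 and 6.6 CPM in the c-Myc + R172H libraries, with log2 fold changes of 1.83 (adjusted p = 0.0445, SE 0.71) and 2.07 (adjusted p = 0.0236, SE 0.70), and its c-Myc call was lost without juvenile 3 or any 1 of the 4 induced libraries and its c-Myc + R172H call without either library of that group. The c-Myc call of Ogg1 was also lost under upper-quartile scaling and in a fit of the 2 groups alone. Both calls of Ogg1 were lost in a fit of all 12 libraries. Camk1, which overlaps 10.6% of the exons of Ogg1 on the opposite strand, moved the other way (-1.68 in c-Myc osteoblasts, adjusted p = 8.73e-05 in edgeR).

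The scaffold and the ligase of single-strand break repair had the smallest values of this pathway. Xrcc1, the scaffold, rose by 0.90 (adjusted p = 0.00161) in c-Myc and 0.86 (adjusted p = 0.00201) in c-Myc + R172H osteoblasts by the quasi-likelihood test. Lig3, its ligase, was at 63.8, 47.9, 48.5 and 47.3 CPM in the juvenile and 44.4, 54.3, 49.9 and 51.3 CPM in the adult libraries. Lig3 levels were 67.5 and 61.8 CPM in the c-Myc and 58.8 and 57 CPM in the c-Myc + R172H libraries. Juvenile 1, at 63.8 CPM, lay above the other juvenile libraries and above 1 of the 2 c-Myc libraries. The log2 fold change of Lig3 was 0.29 (adjusted p = 0.0878, SE 0.14) and 0.16 (adjusted p = 0.331, SE 0.14), and neither interval reached a 2-fold change. Without juvenile 1, Lig3 passed in both (0.41, adjusted p = 0.00662, and 0.28, adjusted p = 0.0379, in edgeR). Lig3 overlaps Rffl on the opposite strand over 25.1% of its exons, and Rffl was at 1.25 to 7.33 CPM in juvenile and 4.62 to 6.68 CPM in induced libraries.

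The 2 mismatch repair members and the lesion bypass member rose in both induced groups. Msh6, part of the dimer that finds mispaired bases, was at 13, 10.5, 13.2 and 20.1 CPM in the juvenile and 17.7, 7.34, 11.5 and 18.8 CPM in the adult libraries. Msh6 levels were 45.8 and 42.6 CPM in the c-Myc and 44.5 and 40.3 CPM in the c-Myc + R172H libraries, with log2 fold changes of 1.62 (adjusted p = 1.83e-05, SE 0.20) and 1.59 (adjusted p = 1.9e-05, SE 0.20). Pms2, part of the dimer that cuts beside them, was at 6.94, 5.37, 1.39 and 4.72 CPM in the juvenile and 4.76, 3.61, 4.66 and 7.25 CPM in the adult libraries. Pms2 levels were 12.4 and 10.8 CPM in the c-Myc and 11.4 and 11.8 CPM in the c-Myc + R172H libraries, with log2 fold changes of 1.27 (adjusted p = 0.0141, SE 0.39) and 1.31 (adjusted p = 0.0115, SE 0.38). Rad18, the ubiquitin ligase that opens the way for bypass polymerases at a stalled fork, was at 4.57, 3.41, 3.89 and 4.6 CPM in the juvenile and 2.53, 3.5, 3.62 and 1.6 CPM in the adult libraries. Rad18 levels were 12.4 and 12.2 CPM in the c-Myc and 13.1 and 13.5 CPM in the c-Myc + R172H libraries, with log2 fold changes of 1.55 (adjusted p = 8.6e-05, SE 0.22) and 1.69 (adjusted p = 3.61e-05, SE 0.22). The calls of Pms2 were lost without c-Myc 1 in c-Myc and without either c-Myc + R172H library in c-Myc + R172H osteoblasts. All 4 induced libraries lay above all 8 others for Msh6, Pms2 and Rad18.

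Compared per length, in CPM per kilobase of exon (GENCODE vM21, GRCm38), Apex1, Parp1 and Lig3 held the first 3 places of the 47 members in juvenile libraries, at 7.36, 7.34 and 7.12. In c-Myc libraries Apex1 was at 44.2 and Parp1 at 30.5 while Lig3, at 8.88, came sixth, behind Usp1, Msh6 and Xrcc5. Rad54l went from place 44 (0.108) to 20 (2.03), Exo1 from 43 (0.111) to 18 (2.16) and Fanca from 35 (0.272) to 15 (2.53), whereas Lig4 went from 15 (1.23) to 39 (0.758), Fancc from 13 (1.85) to 33 (1.11) and Xrcc4 from 26 (0.494) to 45 (0.426). The first 3 in juvenile libraries do not differ beyond their spread (SD of 2.44 for Apex1, 0.817 for Parp1 and 1.09 for Lig3 on the same scale, n = 4).

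**Figure D4:**
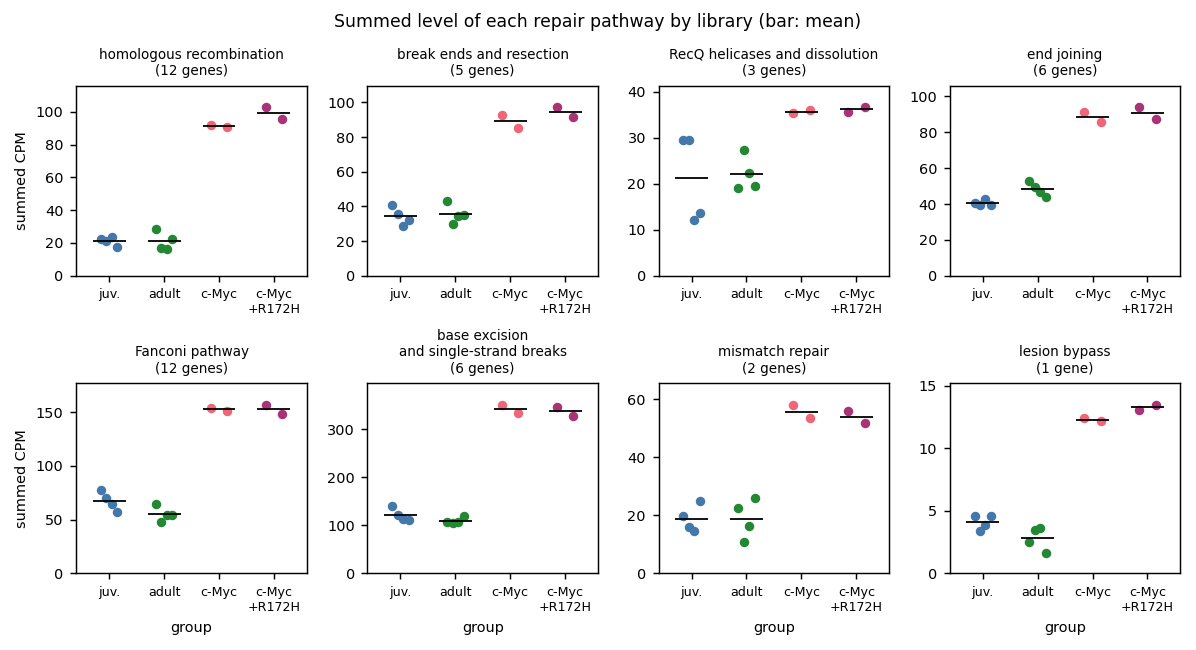
Each panel gives the summed CPM of the members of 1 pathway in every library (points, with a bar for the group mean; axis from 0). Homologous recombination sums to 17.6 to 23.4 CPM in juvenile and 90.9 to 103 CPM in induced libraries and base excision to 111 to 141 and 328 to 351 CPM, and in every panel the induced libraries lie above the juvenile and adult ones.

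The calls of the members in the 2 induced groups are given side by side, since both comparisons share the juvenile libraries. In 33 members both were called higher, Fance and Rad54b were called higher in c-Myc + R172H osteoblasts alone, Rad51d was called higher and Fancc lower in c-Myc osteoblasts alone, and 10 passed in neither. A call in 1 of the 2 does not show a difference between them. The comparison of c-Myc + R172H with c-Myc, which asks what the p53 mutant added to c-Myc, called 0 of 47 members in either direction, where 0.00794% of all genes tested were called higher and 0.461% lower in edgeR. No member reached an unadjusted p under 0.05 there (0 of 47), and DESeq2 also called 0. The log2 fold changes ran from -0.37 (Xrcc4) to 0.59 (Rad54b) with a median of 0.08. In 23 members the 95% interval lay within a 2-fold change either way, so that for the other 24 a 2-fold difference was not excluded by the interval. The 3 members with the smallest p were Rad50 (0.39, adjusted p = 1, SE 0.19), Prkdc (0.24, adjusted p = 1, SE 0.24) and Brca1 (0.22, adjusted p = 1, SE 0.24). The summed level of the members was 852.5 and 902.3 CPM in c-Myc + R172H against 887.2 and 848.6 CPM in c-Myc libraries, which overlap. When these 2 groups were fitted without the juvenile libraries, Rad50 was called higher (0.40, adjusted p = 0.023).

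The comparison of juvenile with adult osteoblasts asked whether repair genes differ with age. Of the 39 members that passed the filter on low counts here, 0 were called in either direction, where 1.89% of all 11345 genes tested were called higher and 3.23% lower in juvenile osteoblasts by edgeR. Palb2, Rad51b, Xrcc3, Rad51ap1, Rad54l, Rad54b, Exo1 and Polq were too low to be tested. On the log2 scale the median change was 0.01, against 0.00 over all genes. At an unadjusted p under 0.05 there were 3 members, and DESeq2 called 0. Rad50 was higher in every juvenile library than in every adult library (12.5 to 15.7 against 5.87 to 11.6 CPM), with a log2 fold change of 0.65 (adjusted p = 0.127, SE 0.24). Parp1 also did not overlap (32.4 to 41.4 against 28 to 31.9 CPM) and had a value of 0.35 (adjusted p = 0.164, SE 0.14). Fance was at 6.4 to 18.9 CPM in juvenile and 7.46 to 8.24 CPM in adult libraries and had a value of 0.68 (adjusted p = 0.194, SE 0.29). None of these passed the adjustment in this fit, and in a fit of all 12 libraries Rad50 (adjusted p = 0.0495) and Parp1 (adjusted p = 0.0412) did. In 15 of the 39 members the 95% interval lay within a 2-fold change either way. Mre11a lay lower in every juvenile library than in every adult library, at -0.48 (adjusted p = 0.359, SE 0.27). The 10 proliferation markers were not called with age in the same fit (0 of 10; 1 at an unadjusted p under 0.05).

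**Figure D5:**
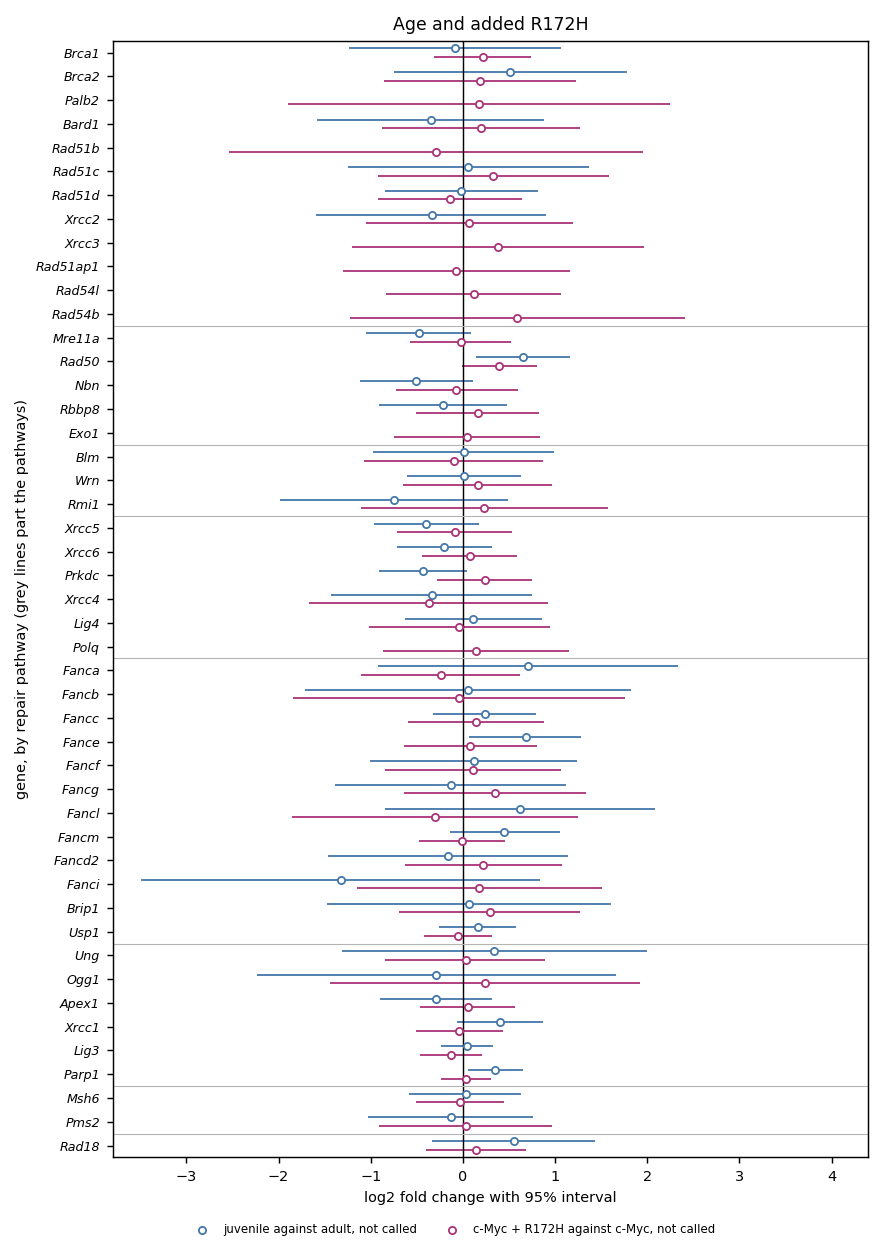
Log2 fold changes with 95% intervals of the members for juvenile against adult (blue, 39 members tested) and for c-Myc + R172H against c-Myc (purple, 47 members tested). All points are open, since no member passed at an adjusted p under 0.05, and the intervals of low genes such as Fanci, Rad51b and Rad54b span more than a 4-fold range.

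A further 60 repair genes that are not members were given the same tests, 59 of them in the induced comparisons. In c-Myc osteoblasts 21 were called higher and 1 lower, with a median change, on the log2 scale, of 0.51, and in c-Myc + R172H osteoblasts 28 were called higher and 1 lower, with a median of 0.61. These are 35.6% and 47.5% of the genes tested, beside 28.4% and 30.4% of all genes. Nucleotide excision repair, which removes bulky damage such as that of ultraviolet light, had 8 of 18 genes (44.4%) called higher in c-Myc and 12 of 18 (66.7%) in c-Myc + R172H osteoblasts. Its leading genes were Gtf2h1, a subunit of the transcription and repair factor TFIIH (1.88, SE 0.14, adjusted p = 3.87e-07), and Ercc8, the Cockayne syndrome A gene (1.86, SE 0.33, adjusted p = 0.000455), in c-Myc osteoblasts by edgeR. Xpa, the damage-verifying protein of that pathway, was called lower in c-Myc osteoblasts (-1.55, SE 0.51, adjusted p = 0.0218) and had a value of -0.80 in c-Myc + R172H osteoblasts (adjusted p = 0.176). Further base excision genes were called higher in 3 of 12 (25%, no more than the 28.4% of all genes) and 5 of 12 (41.7%), with the largest values in the glycosylase gene Neil3 (2.05 and 2.72), with Nthl1 next in c-Myc (1.65) and Parp2 next in c-Myc + R172H osteoblasts (1.74). Recombination and Fanconi partners were called higher in 6 of 14 in both (42.9%), led by the helicase gene Recql4 (3.44 and 3.47) and the nuclease gene Gen1 (2.98 and 3.28). In juvenile libraries Neil3 was at 0 to 1.67, Nthl1 at 0.31 to 0.994, Recql4 at 0.206 to 2.64 and Gen1 at 0 to 1.86 CPM. The fitted values of these low genes are given as a description. The filter on the juvenile libraries alone was not applied to the 60 genes. Their counts called higher, in total and by pathway, are therefore a description too. Other end-joining genes were called higher in 2 of 7 in both (28.6%, near the 28.4% and 30.4% of all genes), Trp53bp1 and Rif1, which shield break ends from resection, and Paxx, a Ku partner, was called lower in c-Myc + R172H osteoblasts (-1.69, adjusted p = 0.0167 in edgeR). Other bypass genes were called higher in 2 of 8 (25%, below the 28.4% of all genes) and 3 of 8 (37.5%), with the largest values in Rev1 (0.90) in c-Myc and Polh (1.05) in c-Myc + R172H osteoblasts. With age 0 of the 53 tested were called in edgeR, with 3 at an unadjusted p under 0.05, and between the induced groups 0 of 59 were, with 0 at an unadjusted p under 0.05.

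Members that share exons with another gene are less certain. The exons of 3 members overlap another gene on the same strand and those of 22 on the opposite strand (GENCODE vM21), and whether reads were counted by strand is not given in the sources used here. Of the partners that cover at least 10% of a member's exons, Lrrc41 (over Rad54l, -0.31 in c-Myc osteoblasts, adjusted p = 0.0616), Zfp276 (over Fanca, 0.11, adjusted p = 0.781) and Polg (over Fanci, 0.48, adjusted p = 0.018) were far from the changes of the members they overlap in edgeR's test. Lrrc41, at 45.6 to 58.5 CPM in juvenile libraries, was far more abundant there than Rad54l. Polg, at 29.6 to 46.1 CPM in juvenile and 54.9 to 59.7 CPM in induced libraries, was more abundant than Fanci in both. The study's methods name a directional library kit, and whether reads of the partners reached the members was not tested. Gas2 (over Fancf, 1.03, adjusted p = 0.224) and Vrk2 (over Fancl, 1.04, adjusted p = 0.235) had values above those of their members (0.48 and 0.32), and none of these 4 genes passed.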

How the data were processed

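RNA-seq was made from 12 libraries of sorted mGFP+ osteoblasts (4 juvenile, 4 adult, 2 c-Myc, 2 c-Myc + R172H). The authors deposited a table of raw read counts per gene with 32288 rows. Per the labels, bcl2fastq 2.20, cutadapt 4.6, STAR 2.7.11a, HTSeq 2.0.5 and the mouse build mm10 were used, and the strand setting of the counting is not given in the sources used here. Reads were not deduplicated by molecular identifiers in any step stated, so limits from counts cover counting error only.

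Counts were tested in R 4.3.3 with edgeR 4.0.16 (TMM, filterByExpr by group, robust quasi-likelihood F test, Benjamini-Hochberg adjustment over all genes tested, calls at an adjusted p under 0.05). Juvenile and adult libraries formed 1 fit, and the juvenile libraries with those of both induced groups another, with a shared spread. SE values follow from the log2 fold change and its F statistic. Levels are CPM with TMM factors over 12 libraries. Alternatives were DESeq2 1.42.0, other scalings, filters and sets of libraries, a replicate block, and leaving out each library. The steps were checked on simulated data.

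The members and lists were chosen with earlier results of these data known. Per-library values were given, per pathway and induced comparison, for up to 3 called members with the largest change, for members called against the main direction and for members not called in c-Myc osteoblasts, with the 3 smallest p where none was called. From the other repair lists up to 2 called genes per direction were named.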

Additional observations from a re-analysis of the deposited data

Results flagged for a closer look

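In 8 of 94 groups of 4 libraries, each group being 1 member in juvenile or adult osteoblasts, 1 library stood apart from the other 3 by Dixon's criterion, where chance flags about 1 group in 20. In juvenile 3, Palb2 was high at 1.81 CPM (others 0 to 0.183), Rad51c was high at 3.2 CPM (others 1.46 to 1.74) and Parp1 was low at 32.4 CPM (others 40.7 to 41.4). Lig3 was high in juvenile 1 at 63.8 CPM (others 47.3 to 48.5), and Fancf was low in juvenile 4 at 1.86 CPM (others 2.23 to 2.28). In adult 1, Xrcc3 was high at 1.42 CPM (others 0.518 to 0.64) and Polq was at 1.01 CPM where the other adult libraries were at 0. Fancb was high in adult 2 at 2.26 CPM (others 0.906 to 1.07).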

How the results depend on the processing

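Of the 35 members called in c-Myc and the 35 called in c-Myc + R172H against juvenile osteoblasts, 25 and 27 kept their call in every alternative that tested them. With library totals in place of TMM, the median log2 fold change of the members was 2.20 in c-Myc (all genes 0.87) with 0 called lower and Fancc turned to 0.03, 2.65 in c-Myc + R172H (all genes 1.12), 0.29 between the induced groups (all genes 0.21) and -0.19 with age (all genes -0.24). Over all genes, library totals called 6803 higher and 1115 lower in c-Myc, 7668 and 1169 in c-Myc + R172H, and 53 and 793 with age. With at least 10 counts in every library only 26 members were tested, with 19 called higher (median 1.14) in c-Myc and 18 (median 1.10) in c-Myc + R172H osteoblasts. Fitting all 12 libraries called 2 members higher with age (461 and 633 of all genes, against 214 and 367) and 0 lower in c-Myc, and fitting only the 2 groups called 0 lower in c-Myc and 1 higher, Rad50, between the induced groups (189 and 440 of all genes, against 1 and 58). The cause was not tested. DESeq2 called 7 and 185 of all genes there.

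The labels number the replicates, but same-numbered libraries did not deviate together with juvenile ones (correlations from -0.07 to 0.05, and 0.16 and 0.16 between the induced groups), so the numbers were not taken as a pairing. For adult libraries the titles and the library names give different numbers. The title numbers were used, and a pairing by library name was not tested. With the replicate block, 2 members were called lower in c-Myc (Fancc, and Wrn at -0.38, adjusted p = 0.042 in edgeR), with a median of 1.24, the c-Myc calls of Rad51d (0.62, adjusted p = 0.0696) and Rad50 (0.36, adjusted p = 0.0543) were lost and Rad51b was called higher (2.03, adjusted p = 0.0361), and 1 was called lower in c-Myc + R172H (Fancc, -1.02). A block in a fit of the induced groups alone, added after seeing the data, called 1 higher (Rad50, 0.40).

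Leaving out 1 library at a time gave 25 to 33 members called higher, 0 to 1 lower and medians from 1.36 to 1.55 in c-Myc, 28 to 35 higher, 0 to 1 lower and medians from 1.43 to 1.58 in c-Myc + R172H, medians from -0.04 to 0.08 between the induced groups and from -0.15 to 0.07 with age. At 3 counts a gene stands at 0.137 to 0.417 CPM, which limits Palb2, Rad51b, Rad54b and other members with juvenile libraries at or near 0.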
